A study of Mus musculus with 12 samples.

Results

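The genes described here carry high-energy phosphate through muscle fibers: the creatine kinases Ckmt2, Ckm, Ckb and Ckmt1, the genes for making and importing creatine (Gatm, Gamt and Slc6a8), the adenylate kinases Ak1 and Ak4, and the AMP deaminase Ampd1. They were taken by gene symbol, 10 of the 55367 distinct symbols in the deposited tables. RNA-seq was performed on isolated fibers of the extensor digitorum longus (EDL), a fast hindlimb muscle, from C57BL/6J mice. The 3 groups of 4 samples each were Young (fibers from mice aged 3–4 months), Fluo-4 normal and Fluo-4 abnormal, both from aged mice of 26–28 months, with no transgene or treatment named for any group. Fluo-4 is a dye that fluoresces when it binds calcium, and the 2 aged groups were separated under a fluorescence stereomicroscope by whether its staining looked abnormal, so that they are sorted fractions of aged muscle rather than aged muscle as a whole. Neither the labels nor the methods state how many fibers or mice stand behind a sample, so p-values measure the spread between these samples. The methods name the Jackson Laboratory as the source of C57BL/6J mice and a national geriatrics center as that of the aged mice. In comparisons with Young fibers, age and the source of the mice therefore cannot be told apart. The study described the abnormal staining in aged male mice and hardly found it in aged females.

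Creatine kinases move phosphate between ATP and creatine. Sarcomeric mitochondrial creatine kinase, encoded by Ckmt2, charges creatine with ATP leaving the mitochondria, and the muscle-type cytosolic enzyme, encoded by Ckm, recharges ATP at the contractile filaments and calcium pumps. Ckb and Ckmt1 encode the brain-type cytosolic and the ubiquitous mitochondrial enzymes, which are best known from other tissues. Adenylate kinases turn a pair of ADP molecules into ATP and AMP, and AMP deaminase removes the AMP. Muscle imports most of its creatine through the transporter Slc6a8, because its synthesis by Gatm and then Gamt takes place largely in the kidney and liver.

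The fibers were of the fast type in all groups. Myh4, the myosin heavy chain of IIb fibers, held 93.7% to 99.7% of the TPM of Myh1, Myh2, Myh4 and Myh7, and Acta1, skeletal actin, ranged from 34218 to 47400 TPM. TPM, the unit of all levels here, counts a gene's transcripts per 1000000 transcripts of the sample, after scaling by transcript length. It does not show how many reads lie behind a value, so depth is unknown here. Of the markers of other cells, endothelial genes summed to 1.54–9.25 TPM, fibroblast genes to 13.2–77.9 TPM, satellite cell genes to 0.783–2.08 TPM and immune genes to 0.014–2.95 TPM, with Adgre1 at 0 in 11 of the 12 samples. The 4 Schwann cell genes summed to 0.773–1.81 TPM in Young, 1.42–6.32 TPM in normal and 3.57–7.45 TPM in abnormal samples, so that abnormal and Young samples did not overlap. Of these genes, Mbp and Sox10 were called higher in abnormal than in Young fibers (log2 changes 1.60 and 0.28, limma adjusted p = 0.0065 and 0.021), and none of the 4 was called between abnormal and normal fibers (limma adjusted p from 0.16 to 0.79; 1, Mbp, at an unadjusted p under 0.05). The part of these markers in the other results was not tested. The highest fibroblast, erythroid and adipocyte sums (77.9, 482 and 109 TPM) were all in sample 2 of the Fluo-4 normal group, and the smooth muscle sum was 62.0 TPM in sample 2 of the Young group against at most 6.12 TPM elsewhere. In these bulk samples, fewer cells of a type and less RNA per cell cannot be told apart.

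Between the 2 kinds of aged fibers, Ckmt2 and Ak4, which encode mitochondrial proteins, fell in the Fluo-4 abnormal fibers, whereas Gamt, which completes creatine synthesis, and Ampd1 rose. Ak4 was low throughout, with means of 2.45 TPM in normal and 0.31 TPM in abnormal fibers. Ak3, a more abundant mitochondrial kinase outside the 10 genes, did not pass the test (log2 change -0.03, limma adjusted p = 0.83). Ckm and Ak1, the abundant cytosolic kinases, did not pass the test, nor did Ckb, Slc6a8 and Gatm. Ckmt1 was listed at 0 in all 12 samples and was not tested, which left 9 of the 10 genes. Genes were tested with limma on log2(TPM + 1), with Benjamini-Hochberg adjustment over 14429 genes. Of all genes tested, 7.36% were called higher and 1.99% lower in abnormal than in normal fibers at an adjusted p under 0.05, beside 2 higher and 2 lower of the 9. TPM is relative to the other RNAs of a sample, and the median change of all genes was 0.10 in this comparison. With TMM-type scaling that median was 0, abundant genes shifted down by more (Ckm from 0.30 to 0.07), and the split of calls over all genes turned from 1062 higher and 287 lower to 306 higher and 542 lower, while the same 4 genes were called in the same directions.

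**Figure D1:**
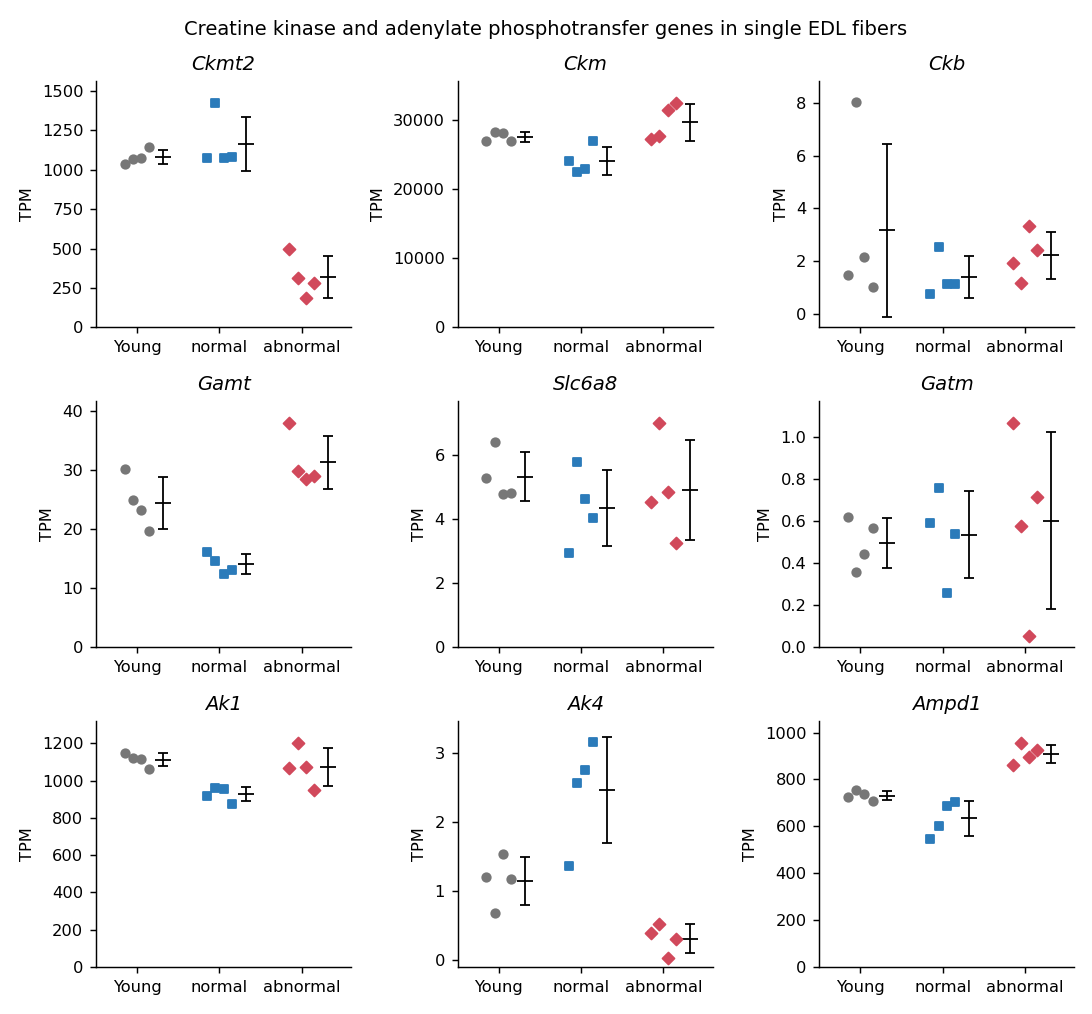
TPM of the 9 genes with values above 0 (vertical axes, linear and different for each gene) in the 4 samples of each group, with the group mean and SD as a bar to the right of the points. The abnormal samples lie below all others for Ckmt2 (at most 496 TPM) and Ak4 (at most 0.52 TPM) and above all others for Ampd1 (at least 862 TPM), and Ckb is set apart by 1 Young sample at 8.03 TPM.

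Ckmt2 lies at chr13:92001503-92025608 of GRCm39, on the minus strand. It stood at 1040, 1069, 1072 and 1142 TPM in the Young samples, at 1074, 1421, 1077 and 1082 TPM in the Fluo-4 normal samples and at 496, 315, 183 and 283 TPM in the Fluo-4 abnormal samples. The abnormal samples lay far below both other groups without overlap, whereas the Young and normal samples lay close together apart from the normal sample at 1421 TPM. The mean was 319 ± 130 TPM (SD, n = 4) in abnormal fibers against 1164 ± 172 TPM in normal and 1081 ± 43.5 TPM in Young fibers, 3.65 times lower than normal and 3.39 times lower than Young. The log2 change was -1.94 ± 0.21 (SE) against normal fibers (limma adjusted p = 0.00049) and -1.85 ± 0.21 against Young fibers (limma adjusted p = 0.00035), comparisons that share the abnormal samples. Between normal and Young fibers the change was 0.10, with a 95% interval from -0.37 to 0.56 (limma adjusted p = 0.91). Ckmt2 ranked at place 5 by size of the fall from normal to abnormal fibers among 6348 genes with at least 5 TPM in a group. The study chose Ckmt2 for its fall in these samples together with its negative association with sarcopenia in human muscle data, so its direction here is not independent evidence. It also reported lower Ckmt2 mRNA by PCR in abnormal fibers, and in whole tibialis anterior muscle of aged against young mice. The normal fibers here are a sorted fraction, so their comparison with Young fibers is not one of whole muscle. Relative spread also differed: the SD was 40.9% of the mean in abnormal, 14.8% in normal and 4.03% in Young fibers.

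Ckm, at chr7:19138701-19157965 on the plus strand, was the most abundant of these genes. It stood at 26973, 28199, 28079 and 26938 TPM in the Young samples, at 24015, 22435, 22974 and 26948 TPM in the normal samples and at 27200, 27617, 31437 and 32392 TPM in the abnormal samples. The abnormal samples lay just above the highest normal sample and overlapped with the Young samples. The log2 change from normal to abnormal fibers was 0.30 ± 0.11, with a 95% interval from 0.06 to 0.54, and did not pass adjustment (limma adjusted p = 0.11). It was 0.07 with TMM-type scaling, and with the test limited to genes of at least 5 TPM it passed (limma adjusted p = 0.017). Against Young fibers it was 0.10 in abnormal and -0.20 in normal fibers (limma adjusted p = 0.63 and 0.49). A part of the exons of Ckm, 2564 bp, lies opposite those of A930016O22Rik, a long non-coding RNA at 64.7–98.6 TPM, which the unstranded libraries cannot separate from it.

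Ckb was at most 3.34 TPM in 11 samples and 8.03 TPM in sample 2 of the Young group, the sample with the high smooth muscle sum, whose part in the value was not tested. The 95% interval of its change from normal to abnormal fibers, -0.42 to 1.30, allowed changes in either direction (limma adjusted p = 0.52). Transcripts of the 4 creatine kinases together held 2.39% to 3.27% of the TPM of a sample.

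The promoters of Ckmt2 and Ckm are shown because these genes encode the mitochondrial and the cytosolic kinase of the same fiber and differ in how their levels vary between the groups. Both sequences run 5′ to 3′ on the strand of the gene, from 250 bases before to 50 bases after the start of transcription, and come from RefSeq (table of GRCm38.p6); each occurs 1 time in GRCm39, the build of the deposited values. Capitals mark E-boxes (CANNTG, the same on both strands), the motif bound by MyoD and its relatives.
Ckmt2, GRCm39 chr13:92024955-92025254, minus strand: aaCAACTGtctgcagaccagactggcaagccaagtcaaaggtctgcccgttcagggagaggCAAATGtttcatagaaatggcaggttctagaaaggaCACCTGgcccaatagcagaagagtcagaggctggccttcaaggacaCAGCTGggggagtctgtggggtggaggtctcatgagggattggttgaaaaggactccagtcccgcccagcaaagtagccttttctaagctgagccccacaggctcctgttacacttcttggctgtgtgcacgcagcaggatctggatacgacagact
Ckm, GRCm39 chr7:19144769-19145068, plus strand: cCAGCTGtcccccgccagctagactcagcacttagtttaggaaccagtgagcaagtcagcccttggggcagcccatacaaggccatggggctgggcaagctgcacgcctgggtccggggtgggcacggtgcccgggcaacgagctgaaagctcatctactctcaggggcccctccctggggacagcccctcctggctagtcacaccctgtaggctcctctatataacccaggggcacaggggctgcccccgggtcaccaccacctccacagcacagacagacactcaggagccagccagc
The Ckmt2 window held 4 E-boxes, beginning 248, 189, 153 and 107 bases before the start, and the Ckm window held 1, beginning 249 bases before it. Of 32841 promoter windows of this length, 72.3% held at least 1 E-box and 6.49% at least 4. Neither window held the estrogen-related receptor element AAGGTCA on either strand (4.72% of all windows) or a MEF2 site (0.557% of all windows). These are matches of letters only. Each window lies inside the span given above for its gene, so the outermost annotated start of both genes lies further upstream. The sequence at those upstream starts was not searched. Of the exons of Ckmt2, 214 bp (3.85%) lie opposite those of a long non-coding RNA, 1700119I11Rik. That RNA stood at 6.18–9.19 TPM in Young, 4.84–8.50 TPM in normal and 0–5.33 TPM in abnormal samples. Its mean was 8.25 TPM in Young, 7.40 TPM in normal and 2.25 TPM in abnormal fibers, so it was lower where Ckmt2 was lower. Abnormal samples did not overlap with Young samples, and they overlapped with normal samples only between 4.84 and 5.33 TPM. The part of this RNA in the Ckmt2 values was not tested.

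Set against Ckm within each sample, which does not depend on the scaling of the sample, Ckmt2 was again lower in abnormal fibers. The Ckmt2 level was 3.79% to 4.24% of the Ckm level in Young, 4.02% to 6.34% in normal and 0.582% to 1.82% in abnormal samples. Every abnormal sample lay below every sample of the other groups. The geometric mean of the ratio in abnormal fibers was 4.74 times lower than in normal and 3.87 times lower than in Young fibers. With 4 samples against 4, the smallest p that a two-sided exact permutation test can give is 0.0286, and both differences reached it (adjusted p = 0.0643 over 18 tests of 6 ratios in 3 comparisons). Here the smallest p became 0.0643 after this adjustment, so no ratio passed 0.05. That adjusted value depends on how many of the 18 tests reach the smallest p. Between normal and Young fibers the log2 ratio differed by 0.29 (exact permutation p = 0.0571, adjusted p = 0.0935). Of all creatine kinase TPM, Ckmt2 made up 3.78% ± 0.20 (SD, n = 4) in Young, 4.64% ± 0.91 in normal and 1.09% ± 0.52 in abnormal fibers.

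**Figure D2:**
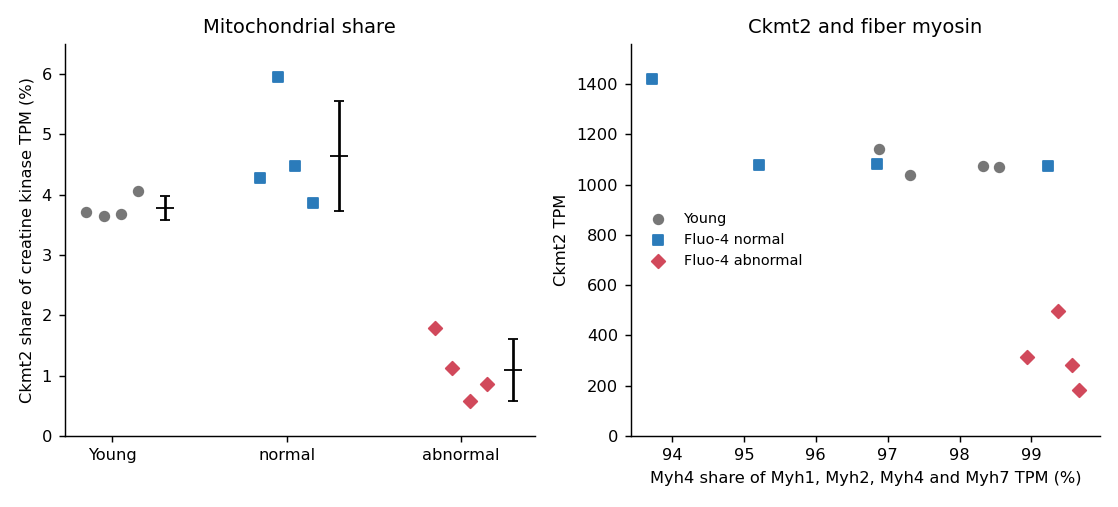
Left, the share of summed creatine kinase TPM that is Ckmt2 (vertical axis, %) in each sample, with the group mean and SD. Right, Ckmt2 TPM (vertical axis) against the share of Myh4 in the TPM of the 4 myosin heavy chains (horizontal axis, %) in the same 12 samples. The abnormal samples lie at 0.579% to 1.79% on the left. On the right they lie at 98.9% to 99.7% Myh4, and the normal samples at 93.7% to 99.2%.

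The genes of the respiratory chain were also lower in abnormal fibers, by less than Ckmt2. All 75 nuclear-encoded genes of oxidative phosphorylation that were tested were lower in abnormal than in normal fibers, 58 of them past the threshold, with a median log2 change of -0.39 and a range from -0.78 to -0.04, beside a median of 0.10 over all genes. They were all lower with TMM-type scaling too. Relative to the geometric mean of these genes in the same sample, Ckmt2 was 2.93 times lower in abnormal than in normal fibers and 2.89 times lower than in Young fibers, with no overlap (exact permutation p = 0.0286, adjusted p = 0.0643 in both). Between normal and Young fibers this log2 ratio differed by 0.02 (exact permutation p = 0.886, adjusted p = 0.886).

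Fiber myosin moved with the groups. Myh4 was called higher in abnormal than in normal fibers (log2 change 0.66, limma adjusted p = 0.020). Myh1 stood at 76.1 TPM in abnormal and 334 TPM in normal fibers (log2 change -1.81, limma adjusted p = 0.087). The Myh4 share was 98.9% to 99.7% in abnormal, 93.7% to 99.2% in normal and 96.9% to 98.6% in Young samples. Only 1 normal sample, at 99.2% and with 1074 TPM of Ckmt2, lay within the range of the abnormal samples. The other normal samples lay at 93.7% to 96.8%. With the Myh4 share as a covariate, the log2 change from normal to abnormal fibers was -1.72 for Ckmt2 and -1.04 for Ak4 (limma adjusted p = 0.020 and 0.039). It was 0.99 for Gamt and 0.60 for Ampd1 (limma adjusted p = 0.024 and 0.023). With the replicate block added, that of Ckmt2 was -1.17 (limma adjusted p = 0.26), in a fit that called 0 genes. The part of fiber type in these changes was not tested.

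**Figure D3:**
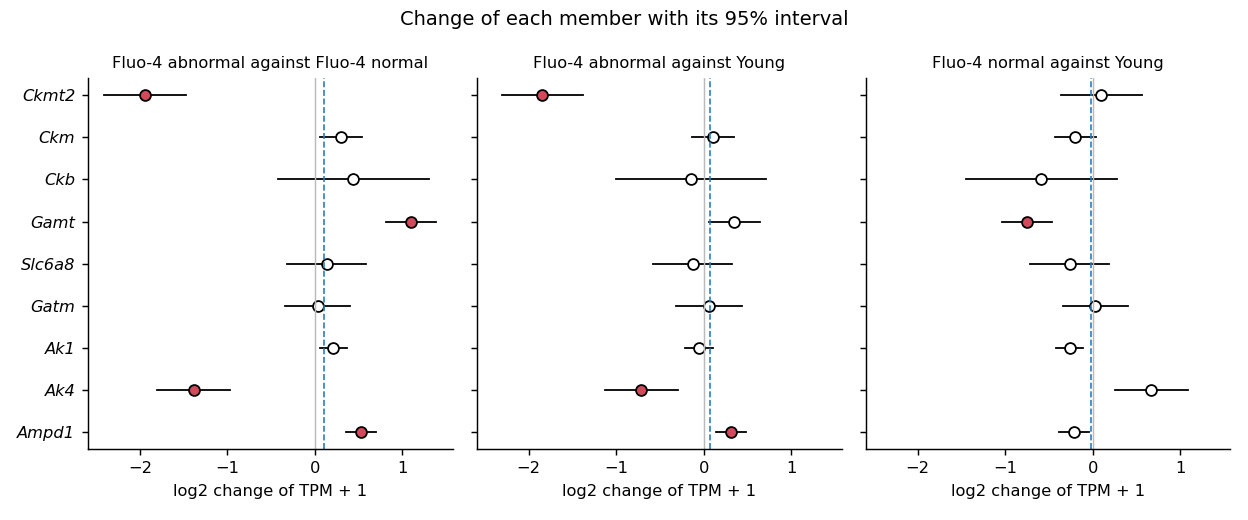
Difference of mean log2(TPM + 1) (horizontal axis) with its 95% interval for the 9 genes tested in the 3 comparisons. Filled points passed an adjusted p under 0.05, and the dashed line is the median of all genes; Ckmt2 lies at -1.94 and -1.85 in the comparisons with abnormal fibers and at 0.10 in the comparison of normal with Young fibers.

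Among the genes of creatine supply, Gamt, at chr10:80089960-80096860 on the minus strand, which methylates guanidinoacetate to creatine, changed between the groups. It stood at 30.2, 24.9, 23.2 and 19.6 TPM in the Young samples, at 16.2, 14.6, 12.4 and 13.1 TPM in the normal samples and at 37.9, 29.8, 28.5 and 29.0 TPM in the abnormal samples. The normal samples lay below both other groups without overlap, and the abnormal samples overlapped with the upper end of the Young samples. From normal to abnormal fibers Gamt rose by 1.10 ± 0.13 on the log2 scale (limma adjusted p = 0.00071), 2.22 times by the group means. Normal fibers were lower than Young fibers by 0.75 (log2 change -0.75 ± 0.13, limma adjusted p = 0.018), but this call held in 7 of 17 alternatives and in 2 of the 8 fits that left out 1 sample, those without Young sample 4 and without normal sample 1. Against Young fibers the abnormal fibers differed by 0.35, with a 95% interval from 0.06 to 0.64 (limma adjusted p = 0.13). Gamt shares 1382 bp of exon sequence, 24.9% of its exons, with Ndufs7 on the opposite strand, a complex I gene at 967–1502 TPM, and these reads cannot be told apart in unstranded libraries. Stretches of 113 to 169 bp of the Gamt transcript also matched many other genes at 95% identity or more, the longest in Npepps. Ndufs7 stood at 1398 TPM in normal and 1053 TPM in abnormal fibers (log2 change -0.41, limma adjusted p = 0.0035). The part of shared reads in the Gamt values was not tested.

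The creatine transporter Slc6a8 ranged from 2.94 to 6.99 TPM and Gatm, which makes guanidinoacetate, from 0.052 to 1.07 TPM over the 12 samples. The groups overlapped for both genes in all comparisons. From normal to abnormal fibers the 95% interval of the log2 change was -0.31 to 0.58 for Slc6a8 and -0.34 to 0.40 for Gatm.

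Ak1, the cytosolic adenylate kinase of muscle, at chr2:32511448-32528933 on the plus strand, was the most abundant adenylate kinase, at 1062–1145 TPM in Young, 876–959 TPM in normal and 951–1202 TPM in abnormal fibers. The normal samples lay below all Young samples and overlapped with the abnormal ones only at the lowest abnormal sample. The changes did not pass the test, at 0.21 from normal to abnormal fibers (95% interval 0.05 to 0.36, limma adjusted p = 0.087) and at -0.26 from Young to normal fibers (limma adjusted p = 0.10). The former was -0.02 with TMM-type scaling, and it passed when genes under 5 TPM were left out (limma adjusted p = 0.044) and without abnormal sample 4 (limma adjusted p = 0.036).

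Ak4, a mitochondrial matrix protein of the adenylate kinase family encoded at chr4:101276265-101324968 on the plus strand, was expressed at a low level. It stood at 1.20, 0.682, 1.53 and 1.17 TPM in the Young samples, at 1.36, 2.56, 2.75 and 3.15 TPM in the normal samples and at 0.384, 0.520, 0.025 and 0.309 TPM in the abnormal samples. The abnormal samples lay below all others, and normal and Young samples overlapped. The log2 change was -1.38 ± 0.19 from normal to abnormal fibers (limma adjusted p = 0.0015). It was -0.71 ± 0.19 from Young to abnormal fibers (limma adjusted p = 0.038), which held in 5 of 16 alternatives and, of the 8 fits that left out 1 sample, only without Young sample 2. With 0.1 TPM added in place of 1 TPM, these changes were -2.80 and -1.77, since the added value is large beside levels this low. A pseudogene, Ak3l2-ps, matches 672 bp of Ak4 at 99.6% identity and was listed at 0 to 0.376 TPM, so reads may have been divided between them. The ratio of Ak4 to Ak1 did not overlap between any pair of groups, lowest in abnormal and highest in normal fibers (exact permutation p = 0.0286 in each comparison, adjusted p = 0.0643).

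Ampd1, the AMP deaminase of muscle, encoded at chr3:102981272-103007037 on the plus strand, stood at 725, 754, 738 and 708 TPM in the Young samples, at 545, 602, 685 and 702 TPM in the normal samples and at 862, 955, 895 and 924 TPM in the abnormal samples. The 3 groups did not overlap, with abnormal fibers highest and normal fibers lowest. The log2 change was 0.53 ± 0.08 from normal to abnormal fibers (limma adjusted p = 0.0022), or 0.42 above the median of all genes. Among genes of at least 5 TPM in a group that median was 0.20, and over the 17 alternatives the lowest change of Ampd1 was 0.30. From Young to abnormal fibers the log2 change was 0.31 ± 0.08 (limma adjusted p = 0.026), and 0.14 with TMM-type scaling (limma adjusted p = 0.33). Of the 8 fits that left out 1 sample, 2 kept this call, those without Young sample 2 and without abnormal sample 1. From Young to normal fibers the log2 change was -0.21 (limma adjusted p = 0.24). Ampd3, which encodes another AMP deaminase, stood at 1.58 ± 0.53 TPM (SD, n = 4) in Young, 3.25 ± 1.18 TPM in normal and 3.47 ± 1.01 TPM in abnormal fibers. Its changes against Young fibers, 0.70 and 0.79, did not pass the test (limma adjusted p = 0.18 and 0.053).

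Between abnormal and Young fibers, 1 of the 9 genes was called higher and 2 lower, beside 6.09% and 2.41% of all genes tested. Between normal and Young fibers, 0 were called higher and 1, Gamt, lower by limma, beside 0.561% and 0.589% of all genes. Of the 9 genes, 5 did not overlap between abnormal and normal fibers (14.0% of all genes), 3 between abnormal and Young fibers (16.2%) and 3 between normal and Young fibers (7.98%).

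In the wider pathway, the 4 lists outside oxidative phosphorylation held 6 genes called between abnormal and normal fibers, to be read beside the 7.36% of all genes called higher and the 1.99% called lower. Between abnormal and normal fibers, 0 of 11 other adenylate and nucleotide kinases were called higher and 1 lower by limma, Nme1, a nucleoside diphosphate kinase (log2 change -0.46, limma adjusted p = 0.029). The median of that list was -0.07 beside 0.10 over all genes, and with TMM-type scaling 3 of the 11 were called lower. Ak3, of the mitochondrial matrix, stood at 28.8 TPM in normal and at 28.2 TPM in abnormal fibers, against 38.1 TPM in Young fibers. It was called lower in abnormal than in Young fibers (log2 change -0.42, limma adjusted p = 0.0048), as was Nme1 (-0.57, limma adjusted p = 0.012), while Nme4, the mitochondrial nucleoside diphosphate kinase, was higher (1.15, limma adjusted p = 0.0020). In normal fibers, Ak3 was called lower than in Young fibers and Nme4 higher (-0.39 and 0.92, limma adjusted p = 0.028 and 0.028).

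Of 15 genes of AMP and purine handling, 0 were called higher and 1 lower between abnormal and normal fibers. This was Adk, which phosphorylates adenosine to AMP, at 118 ± 15.0 TPM (SD, n = 4) in Young, 170 ± 27.5 TPM in normal and 84.0 ± 17.4 TPM in abnormal fibers (log2 change -1.02 ± 0.15, limma adjusted p = 0.0020). The list's median was 0.02, and with TMM-type scaling it was -0.14 and 2 of the 15 were called lower. Against Young fibers, abnormal fibers had lower Adssl1, which returns IMP towards AMP (-0.46, limma adjusted p = 0.0026), and higher Impdh2 and Hprt (0.53 and 0.40, limma adjusted p = 0.024 and 0.0089), and the calls of Impdh2 and Hprt were lost with TMM-type scaling (limma adjusted p = 0.058 and 0.18). Adssl1 was also lower in normal than in Young fibers (-0.36, limma adjusted p = 0.037).

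Of 9 genes of ADP and ATP exchange, 1 was called higher and 2 lower in abnormal than in normal fibers, with a median of -0.10. Slc25a4, the ADP/ATP carrier of muscle, fell from 3416 ± 96.6 to 2372 ± 114 TPM (log2 change -0.53 ± 0.07, limma adjusted p = 0.00073), and Slc25a3, the phosphate carrier, fell by 0.41 (limma adjusted p = 0.0091). Slc25a24, an ATP and phosphate carrier regulated by calcium, rose from 0.156 to 0.554 TPM (0.43, limma adjusted p = 0.024), a call that did not hold with the replicate block (limma adjusted p = 0.11). All 3 were called in the same directions against Young fibers, where Vdac1, the main pore of the outer membrane, was also lower (-0.30, limma adjusted p = 0.035). Of the 7 subunits of AMPK, the kinase that senses AMP, 1 was called. Prkag3, the gamma subunit of fast muscle, stood at 98.5 ± 20.1 TPM in Young, 63.8 ± 12.2 TPM in normal and 161 ± 26.4 TPM in abnormal fibers (log2 change from normal to abnormal 1.33 ± 0.17, limma adjusted p = 0.00077). The list's median was 0.37, with 6 of the 7 subunits higher. With TMM-type scaling it was 0.17, with 4 higher and 3 lower. Over the alternatives, the calls between abnormal and normal fibers held in 16 of 17 for Adk, Slc25a4 and Prkag3, in 14 for Slc25a3, in 9 of 16 for Slc25a24 and in 8 of 17 for Nme1. Those against Young fibers held in 16 of 17 for Ak3, Nme4, Adssl1 and Slc25a4, in 15 for Nme1, 14 for Hprt, 11 for Prkag3, 8 for Impdh2, 7 for Vdac1 and 6 for Slc25a3, and in 10 of 16 for Slc25a24, in abnormal fibers, and in 8 for Nme4, 7 for Ak3 and 5 for Adssl1 in normal fibers.

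**Figure D4:**
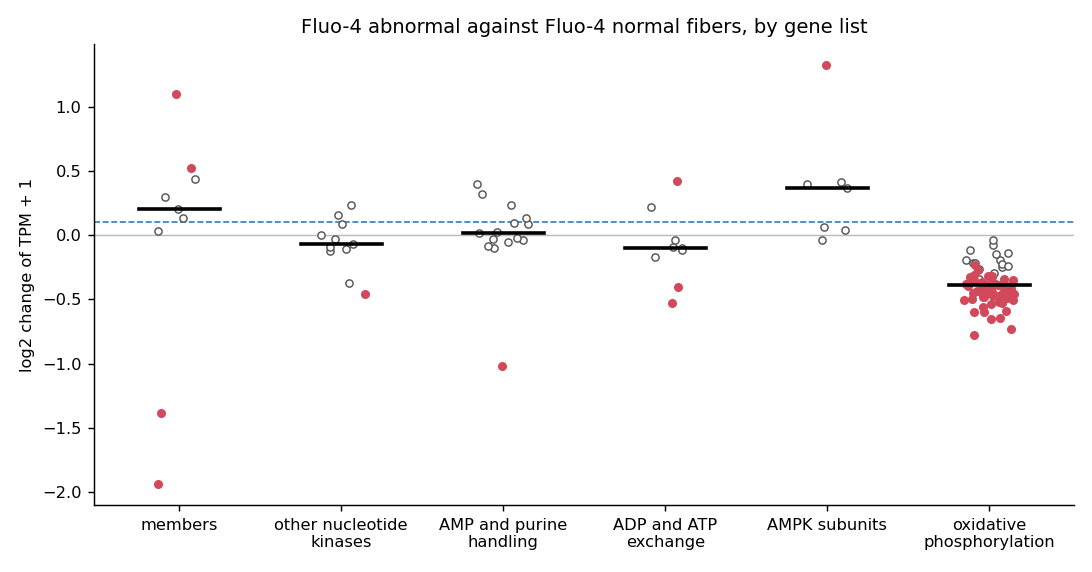
Difference of mean log2(TPM + 1) between abnormal and normal fibers (vertical axis) for each tested gene of the 6 lists, with filled points past an adjusted p under 0.05, a bar at each list's median and a dashed line at the median of all genes (0.10). All 75 points of oxidative phosphorylation lie below 0, whereas Ckmt2 lies at -1.94 and Prkag3 at 1.33.

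The genes whose levels varied most like those of Ckmt2 over the 12 samples, by Pearson's r on log2(TPM + 1) among 5993 genes with a mean of at least 5 TPM, were Ndufa9 (0.975), Phb (0.971), Sh3kbp1 (0.968), Grb14 (0.968) and Prdx3 (0.967). This is a description over samples that fall into 3 groups. Among the members, r with Ckmt2 was 0.82 for Ak4, -0.73 for Ckm, -0.63 for Gamt and -0.83 for Ampd1. It was weaker for the rest, at -0.26 for Ak1, -0.16 for Ckb, 0.03 for Slc6a8 and 0.20 for Gatm. Of the genes called in the wider pathway, r was 0.95 for Slc25a4, 0.86 for Adk and -0.80 for Prkag3.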

How the data were processed

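RNA-seq values of 12 samples of isolated EDL fibers were used, 4 per group. SMART-Seq v4 libraries were made from 10 ng of total RNA, DRAGEN served for alignment to GRCm39, and TPM were deposited by the authors in 1 table of 55487 lines per sample; the annotation release is not given in the sources used here. Depth is unknown, so no counting interval was computed. Symbols on several lines (114) were summed. Classes came from GENCODE vM39 and RefSeq, and 2876 unmatched symbols were left out. As in the methods, protein-coding genes (with mitochondrially-encoded ones) reaching a mean of 0.02 TPM in at least 1 group were tested, 14429 in all.

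A model of the 3 groups was fitted to log2(TPM + 1) of all 12 samples with limma 3.58.1 (R 4.3.3, variance trend), with Benjamini-Hochberg adjustment and a threshold of 0.05. On data simulated with normally distributed noise for abnormal against normal fibers (14429 genes, 200 changed), 93% of 2-fold and 100% of 4-fold changes were recovered. Of the calls, 5.85% were false. The changed genes were drawn only from those at about 5 TPM or more in normal fibers. The recovery therefore does not cover genes at lower levels, among them Ak4, Ckb, Gatm and Slc6a8. Ratios of genes within a sample were compared by two-sided exact permutation over the 70 arrangements. BLAST 2.17.0 served to find near-identical copies (95% identity and 100 bp as minimum). Python 3.11.15, pandas 2.3.3, scipy 1.17.1 and matplotlib 3.10.9 were used.

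The genes named are the 10 members, the called genes of 4 pathway lists (up to 5 per list, with Ak3, Ampd3 and Slc25a4; 1 further gene is not reported here) and the 5 genes most like Ckmt2. Members and lists were chosen with earlier results of these data known. Alternatives were TMM-type scaling, scaling without mitochondrially-encoded genes, other filters (none or 5 TPM), 0.1 TPM as the pseudocount, a replicate block, the Myh4 share as a covariate, only the 2 groups compared, and leaving out each sample. The main fit and the permutation tests of ratios did not use the sample numbers, so their p-values are unpaired. Same-numbered samples were matched only in the alternatives with a replicate block. For abnormal and normal samples, deviations from the group means correlated at 0.438, 0.375, 0.430 and 0.302 between same numbers over 5994 genes. Between different numbers they correlated at -0.365 to 0.234, and the labels do not state what a number shares.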

Additional observations from a re-analysis of the deposited data

Results flagged for a closer look

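Dixon's test, which asks whether the highest or lowest of 4 samples stands apart from the other 3, was applied to 45 groups of values and marked 5 at its 95% critical value. Chance alone marks about 1 in 20 groups. Ckmt2 in sample 2 of the Fluo-4 normal group stood at 1421 TPM, and that sample also had the lowest Myh4 share (93.7%) and the highest erythroid marker sum (482 TPM) of the 12 samples. Without it, the log2 change of Ckmt2 from normal to abnormal fibers was -1.84 (limma adjusted p = 0.0053). Ckb in sample 2 of the Young group stood at 8.03 TPM, in the sample whose smooth muscle marker sum was 62.0 TPM. Gamt in sample 1 of the abnormal group stood at 37.9 TPM. The log2 ratio of Ckmt2 to Ckm was -4.56 in sample 4 of the Young group, and the log2 ratio of Ak4 to Ak1 was -15.39 in sample 3 of the abnormal group, where Ak4 was at 0.025 TPM. The part of marker genes, fiber myosin and depth in these values was not tested.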

How the results depend on the processing

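Between abnormal and normal fibers, the calls of Ckmt2, Gamt and Ampd1 held in 16 of 17 alternatives and that of Ak4 in 15 of 16, each with its direction in all of them. The exception was the replicate block with the Myh4 share, which leaves 2 residual degrees of freedom and called 0 genes by limma (2461 of all genes at an unadjusted p under 0.05), hence 0 members and 0 pathway genes in every comparison (Ckmt2 -1.17, limma adjusted p = 0.26). With the replicate block alone, the 4 members called stayed called (limma adjusted p = 0.020 for Ckmt2, 0.028 for Ak4, 0.022 for Ampd1 and 0.018 for Gamt), with 1150 genes called in all. Normal or abnormal and Young samples share only a number, with correlations of -0.081 to 0.228 between same-numbered samples. Against Young fibers, the block called 2 members and 5 pathway genes for abnormal fibers (3 and 12 without it) and 0 and 0 for normal fibers (1 and 3 without it, and with it 0 of all genes by limma, 1983 at an unadjusted p under 0.05).

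With only the 2 groups compared, 3 pathway genes were called between abnormal and normal fibers (6 with all groups), and 0 members and 1 pathway gene between normal and Young fibers. Those last counts were 0 and 1 with the Myh4 share as a covariate. A filter of 5 TPM gave 5 pathway genes in that comparison. Leaving out 1 sample gave 1 to 3 members (1, Ckmt2, in all but the fits without Young sample 2 and without abnormal sample 1) and 6 to 12 pathway genes (the lowest without abnormal sample 4) between abnormal and Young fibers, and 0 to 2 members (the highest without normal sample 1) and 0 to 2 pathway genes between normal and Young fibers. With 1 TPM added to both genes, the log2 ratio of Ak4 to Ak1 differed by -1.59 between abnormal and normal and by -0.66 between abnormal and Young fibers.

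Of 450 recomputed changes of single members, 384 kept their direction and side of the threshold, 34 lost a call, 4 gained one and 28 turned direction, all of them changes that had not passed the test. Between abnormal and normal fibers, TMM-type scaling gave -0.048 for Slc6a8, -0.051 for Gatm and -0.019 for Ak1, and 0.1 TPM as the pseudocount gave -0.12 for Gatm. Leaving out 1 sample gave -0.024 to 0.28 for Slc6a8 and -0.11 to 0.22 for Gatm. Between abnormal and Young fibers, TMM-type scaling gave -0.072 for Ckm and -0.0017 for Gatm, the pseudocount gave -0.071 for Gatm, and the Myh4 share gave 0.075 for Slc6a8. The replicate block with the Myh4 share gave -0.053 for Ckm, 0.26 for Slc6a8, -0.024 for Gatm and 0.12 for Ak1. Leaving out 1 sample gave -0.41 to 0.32 for Ckb (0.32 without Young sample 2), -0.29 to 0.018 for Slc6a8, -0.076 to 0.25 for Gatm and -0.11 to 0.0010 for Ak1. Between normal and Young fibers, the Myh4 share gave -0.011 for Ckmt2 and -0.0047 for Gatm, the block with that share gave -0.027 for Gatm, and leaving out 1 sample gave -0.0033 to 0.13 for Ckmt2 and -0.038 to 0.12 for Gatm. The cause of these changes was not tested.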
